A study of Homo sapiens with 8 samples.

Results

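The H3K4me1 peaks of control MDA-MB-231 cells were taken from the list that set control immunoprecipitate over control input, and 82994 of its 83000 peaks lay on chromosomes 1 to 22 and X and were used. MDA-MB-231 is an established human line of triple-negative breast cancer with a mesenchymal-like phenotype. The control group had 2 samples immunoprecipitated with an antibody against H3K4me1 (ab8895) and 2 input samples, and carried the genotype label "control" with no further allele or agent. The labels do not say how the control cells were made or whether they are a clone. The study also held cells lacking ARID1A, which were not compared here. The antibody label and titles name H3K4me1, whereas the protocol text names H3K4me3 for the same antibody number. Only 1 list was used for the 4 control samples, so no value here has a spread between cultures, and no test across samples was made. The read depth behind a peak is unknown.

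Lysine 4 of histone H3 receives its single methyl group mainly from the KMT2C and KMT2D enzymes. H3K4me1 marks enhancers, both active and poised, and the shoulders of active promoters. The start itself of an active gene usually carries the trimethylated form, and CpG-rich starts are the ones that most often do. Breast lines of the mesenchymal-like kind are known for strong AP-1, TEAD and NF-kB enhancer activity, and for low activity of the estrogen receptor programme.

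Around the starts of coding genes the peaks formed 2 shoulders with a trough at the start. The sequences just before 6 starts are shown as strong examples of 2 arrangements, a CpG-rich start in a gap between 2 peaks, which most CpG-rich starts had, and a CpG-poor start inside a peak, which a minority of CpG-poor starts had. Each is the 250 bases before the start on the gene's strand, from RefSeq (GRCh38.p14), 5′ to 3′, with every CG dinucleotide in capitals. They were taken from the members of the gene lists described further on, by the highest pileup of the flanking or covering peaks. The CpG-rich starts were those of ZYX (zyxin, a focal adhesion protein), MT2A (a metallothionein) and TLN1 (talin, which links integrins to actin).
ZYX: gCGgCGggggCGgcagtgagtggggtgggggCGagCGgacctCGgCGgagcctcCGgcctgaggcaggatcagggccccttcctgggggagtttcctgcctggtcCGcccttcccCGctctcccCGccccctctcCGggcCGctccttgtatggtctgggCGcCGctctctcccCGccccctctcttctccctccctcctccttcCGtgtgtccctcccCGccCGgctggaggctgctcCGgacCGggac
MT2A: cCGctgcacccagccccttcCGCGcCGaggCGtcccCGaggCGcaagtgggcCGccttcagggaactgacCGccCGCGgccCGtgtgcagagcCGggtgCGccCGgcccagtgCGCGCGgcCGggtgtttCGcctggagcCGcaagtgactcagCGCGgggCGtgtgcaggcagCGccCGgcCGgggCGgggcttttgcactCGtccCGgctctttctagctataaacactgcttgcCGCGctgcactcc
TLN1: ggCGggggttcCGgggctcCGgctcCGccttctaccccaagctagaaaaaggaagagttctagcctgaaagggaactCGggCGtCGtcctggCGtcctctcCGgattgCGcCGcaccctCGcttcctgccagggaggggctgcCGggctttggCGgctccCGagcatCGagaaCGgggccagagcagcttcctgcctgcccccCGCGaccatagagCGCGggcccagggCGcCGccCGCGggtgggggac
The CpG-poor starts were those of BCAR1 (the adhesion scaffold p130Cas), TNNI3 (cardiac troponin I) and CSF2 (the cytokine GM-CSF).
BCAR1: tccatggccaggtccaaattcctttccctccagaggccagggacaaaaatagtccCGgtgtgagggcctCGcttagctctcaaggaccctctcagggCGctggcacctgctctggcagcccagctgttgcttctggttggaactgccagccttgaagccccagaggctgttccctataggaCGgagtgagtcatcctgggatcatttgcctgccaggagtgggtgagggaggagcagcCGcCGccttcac
TNNI3: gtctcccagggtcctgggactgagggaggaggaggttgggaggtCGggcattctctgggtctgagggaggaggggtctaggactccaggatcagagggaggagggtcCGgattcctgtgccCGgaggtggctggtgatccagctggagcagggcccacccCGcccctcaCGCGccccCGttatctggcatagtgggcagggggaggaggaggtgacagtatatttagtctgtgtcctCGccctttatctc
CSF2: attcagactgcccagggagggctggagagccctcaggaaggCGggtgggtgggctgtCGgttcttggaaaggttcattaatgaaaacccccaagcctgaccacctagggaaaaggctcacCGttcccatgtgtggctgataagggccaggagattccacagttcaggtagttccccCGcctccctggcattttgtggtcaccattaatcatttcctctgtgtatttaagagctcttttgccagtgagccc
The ZYX, MT2A and TLN1 stretches held 21, 32 and 25 CG dinucleotides, and those of BCAR1, TNNI3 and CSF2 held 6, 8 and 4.

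The ZYX stretch (chr7:143381095-143381344, plus strand) lay in a gap of 2817 bases between a peak ending at 143379607 (pileup 30.8) and a peak beginning at 143382425 (pileup 29.1). Pileup is the authors' number of stacked fragments at a peak. The MT2A stretch (chr16:56608334-56608583, plus strand) lay in a gap of 2578 bases between peaks of pileup 29.0 and 36.2. The TLN1 stretch (chr9:35732196-35732445, minus strand) lay in a gap of 3337 bases between peaks of pileup 29.0 upstream and 27.7 downstream. At these 3 genes the mark was high on either side and not called over the start. The BCAR1 stretch (chr16:75268008-75268257, minus strand) lay inside 1 peak of 4340 bases with a pileup of 32.2. The TNNI3 stretch (chr19:55157733-55157982, minus strand) lay inside a peak of 3727 bases with the same pileup, and the CSF2 stretch (chr5:132073539-132073788, plus strand) inside a peak of 6254 bases with a pileup of 30.9. Here a single peak ran across the start. The letters TGANTCA, the AP-1 motif, occurred once in the MT2A and once in the BCAR1 stretch and in none of the other 4.

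The arrangements were then counted over the 15812 coding genes with a start in the RefSeq promoter table, taking for each gene the start farthest upstream. Starts on chromosome 8 were not used here. A start was called CpG-rich when the 300 bases from 250 before to 50 after it had a GC content of at least 50% and an observed over expected CpG ratio of at least 0.6. This made 9981 CpG-rich starts (63.1%, median 29 CG dinucleotides in 300 bases) and 5831 CpG-poor starts (median 5). Of the CpG-rich starts, 13.6% lay inside a peak (95% exact interval 12.9 to 14.3), as did 14.9% of the CpG-poor starts (14.0 to 15.9). Peaks on both sides within 3 kb, with the start in the gap between, were found at 52.6% of CpG-rich starts (51.6 to 53.6) and at 11.9% of CpG-poor starts (11.1 to 12.8). No peak lay within 3 kb of 14.6% of CpG-rich starts (13.9 to 15.3), against 56.8% of CpG-poor starts (55.5 to 58.1). The classes thus differed in having peaks on both sides and in having no peak near, while the share of all starts inside a peak was close in both. Among starts with any peak within 3 kb, the share inside a peak was higher for CpG-poor starts. These exact (Clopper-Pearson) intervals cover counting error over starts only, and neighbouring starts are not independent.

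Coverage by distance from the start showed the trough directly. At CpG-rich starts, 38.2% had a peak 1250 bases upstream, 13.6% at the start and 54.2% at 1750 bases downstream. At 20000 bases the values were 10.9% upstream and 12.2% downstream, and peaks covered 6.23% of the span between the outermost peaks of the chromosomes. The downstream shoulder was higher and reached farther than the upstream one, with 33.3% of CpG-rich starts covered 4000 bases downstream and 14.3% covered 4000 bases upstream. CpG-poor starts had a lower profile with smaller swings. It rose from 8.04% at 20000 bases upstream to 18.6% at 500 bases upstream (17.6 to 19.6), was 14.9% at the start, dipped to 12.97% at 750 bases downstream (12.1 to 13.9) and was 16.9% at 1750 bases downstream. The share with peaks on both sides rose with CpG content, from 3.37% of starts with a CpG ratio under 0.2 to 61.4% of those with a ratio over 1.0. The median gap at a CpG-rich start between 2 peaks was 2017 bases, with quartiles of 1618 and 2577. By the 3 kb limit such a gap had to be under 6 kb, and no gap under 1249 bases exists in the list, so narrower troughs could not be seen.

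**Figure D1:**
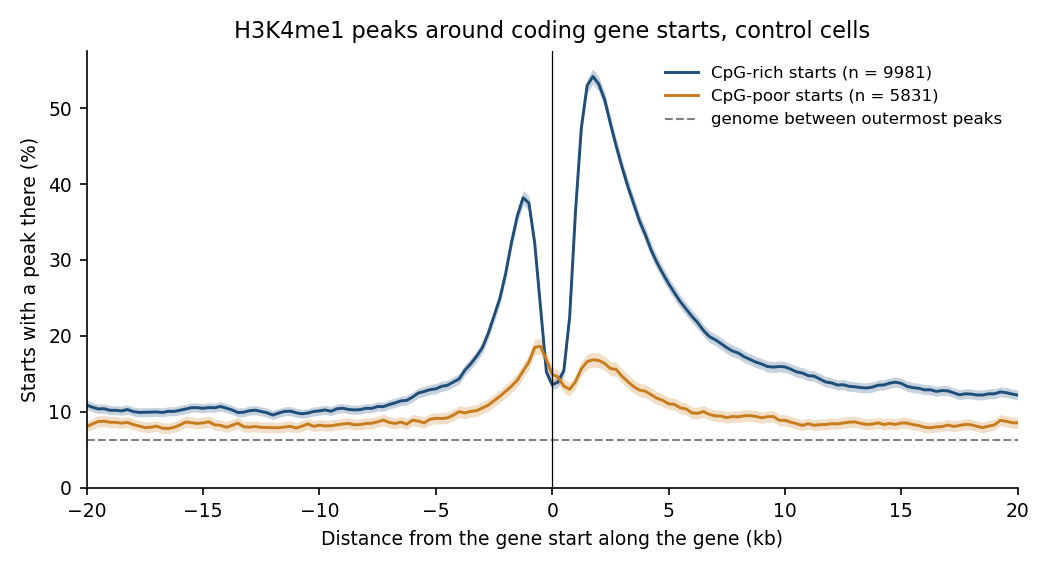
Percent of coding gene starts with a control H3K4me1 peak at each distance along the gene, in steps of 250 bases, for CpG-rich and CpG-poor starts. Bands are 95% exact intervals and the dashed line is the percent of the genome span covered. CpG-rich starts have shoulders of 38.2% at 1250 bases upstream and 54.2% at 1750 bases downstream around a trough of 13.6%.

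Letters of known factor motifs were counted on both strands of the same 300 bases. TGANTCA (AP-1) was found in 5.70% of all promoters and 10.4% of CpG-poor ones. It was in 15.4% of CpG-poor promoters whose start lay inside a peak (13.1 to 18.0) and in 9.93% of CpG-poor promoters with no peak within 3 kb (8.94 to 11.0). CCGGAAG (ETS factors) was found in 14.1% of all promoters and 19.9% of CpG-rich ones (19.1 to 20.7). The share was 20.8% in CpG-rich promoters with the start inside a peak (18.6 to 23.01), close to that of the class, and 7.97% in CpG-rich promoters with no peak within 3 kb (6.63 to 9.48). TATAAA (the TATA box) ran the other way, at 14.2% and 22.7% of CpG-poor promoters with the start in a peak and with no peak near (11.98 to 16.7 and 21.3 to 24.2), against 19.4% of all CpG-poor promoters and 9.75% of all. These 2 sets of CpG-poor promoters differed in base content, with a median GC content of 54.3% and 48.3%. The motif shares were not adjusted for it, so a motif of A and T alone cannot be told apart from base content here. GGAATG (TEAD factors) was in 11.8% of all promoters, 16.4% of CpG-poor ones, 19.5% of those inside a peak (16.9 to 22.3) and 15.6% of those with no peak near (14.4 to 16.9). TGTGGT (RUNX factors), in 11.04% of all and 16.7% of CpG-poor promoters, was in 18.03% and 17.4% of these 2 sets (15.5 to 20.7 and 16.1 to 18.8). CACGTG (an E-box), in 8.82% of all and 5.21% of CpG-poor promoters, was in 6.77% and 4.59% (5.196 to 8.65 and 3.90 to 5.36). A match is a run of letters and not a bound site.

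The width of a peak ranged over nearly 3 orders of magnitude. The narrowest peak had 312 bases, the median was 1386, the quartiles were 768 and 2563, and the widest peak had 185349 bases. Peaks under 1 kb made up 35.2% of the list but 9.98% of its 183.2 Mb of covered bases. Peaks of 10 kb or more were rare and held a larger share of the bases than of the peaks. The 1641 peaks of 10 to 50 kb (1.98% of peaks) carried 13.9% of bases, and 22 peaks of at least 50 kb carried a further 0.873%. The largest share of bases, 35.5%, was in peaks of 2 to 5 kb. Wider peaks also had a higher pileup. Median pileup was 10.95 under 1 kb, 13.6 from 1 to 2 kb, 16.9 from 2 to 5 kb, 20.03 from 5 to 10 kb, 21.8 from 10 to 50 kb and 26.4 in the 22 widest. Width and pileup had a Spearman rho of 0.56 over the 82994 peaks, which share the same libraries and the same peak caller. Median fold over input rose over the same classes too, from 2.63 to 4.63. So did the implied input background, which is defined with the gene ranks below, from 3.42 to 5.23. Pileup and that background, which pileup enters, had a rho of 0.73. The part of background in the order by width was not tested.

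Wide peaks lay inside coding genes more often than narrow ones. The midpoint was inside a coding gene record for 48.4% of peaks under 1 kb (47.8 to 49.0), 62.3% of those of 2 to 5 kb (61.6 to 62.9) and 78.6% of those of 10 to 50 kb (76.5 to 80.5). Over all peaks this share was 55.6%. The share lying more than 50000 bases from any coding gene fell over the same classes, from 21.1% (20.6 to 21.6) to 15.1% (14.6 to 15.6) and 8.10% (6.83 to 9.53). Over all peaks it was 18.2%. Pileup showed the same order, with 26.4% of the quartile of lowest pileup (25.8 to 27.0) and 12.9% of the highest (12.4 to 13.3) far from coding genes. The median implied background of these quartiles also differed, at 2.74 and 4.92. A coding start lay inside 0.784% of peaks under 1 kb and 9.71% of peaks of 10 to 50 kb, against 3.51% of all peaks. About 9 in 10 of the broad peaks thus held none from the promoter table. A wider peak has more room for a start, so part of the rise with width comes from the measure itself. With chromosome 8 left out, these 2 classes had 218 and 152 peaks with a start. Their covered bases, chromosome 8 included, were 18.3 and 25.5 Mb.

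Gaps between peaks varied widely in length. The median gap to the next peak was 10968 bases with quartiles of 3632 and 30402. The smallest was 1249, a limit set by the caller's joining. Gaps under 5 kb made up 11.6% (under 2 kb) plus 20.3% (2 to 5 kb) of the 82971 gaps but only 0.556% plus 1.99% of the bases between peaks. Gaps of 100 kb or more were 5.81% of the gaps and 48.4% of those bases. Of the short gaps, 30.1% of gaps under 2 kb (29.2 to 31.1) and 19.0% of gaps of 2 to 5 kb (18.4 to 19.6) held a gene start, against 6.10% of gaps of 5 to 12.5 kb (5.74 to 6.47). The share rose again in longer gaps, to 10.6% at 12.5 to 50 kb, 18.2% at 50 to 100 kb and 30.5% at 100 kb or more. Per Mb of gap, the number of gaps with a start fell over the 6 classes, from the shortest to the longest, at 189.0, 58.6, 7.34, 4.06, 2.63 and 1.10. Each gap counted once however many starts it held, so part of this fall comes from the measure itself. When peaks less than 12.5 kb apart were joined, 38822 regions resulted, of which 21030 (54.2%) held a single peak and 530 held at least 10. Those 530 carried 13.1% of all covered bases.

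**Figure D2:**
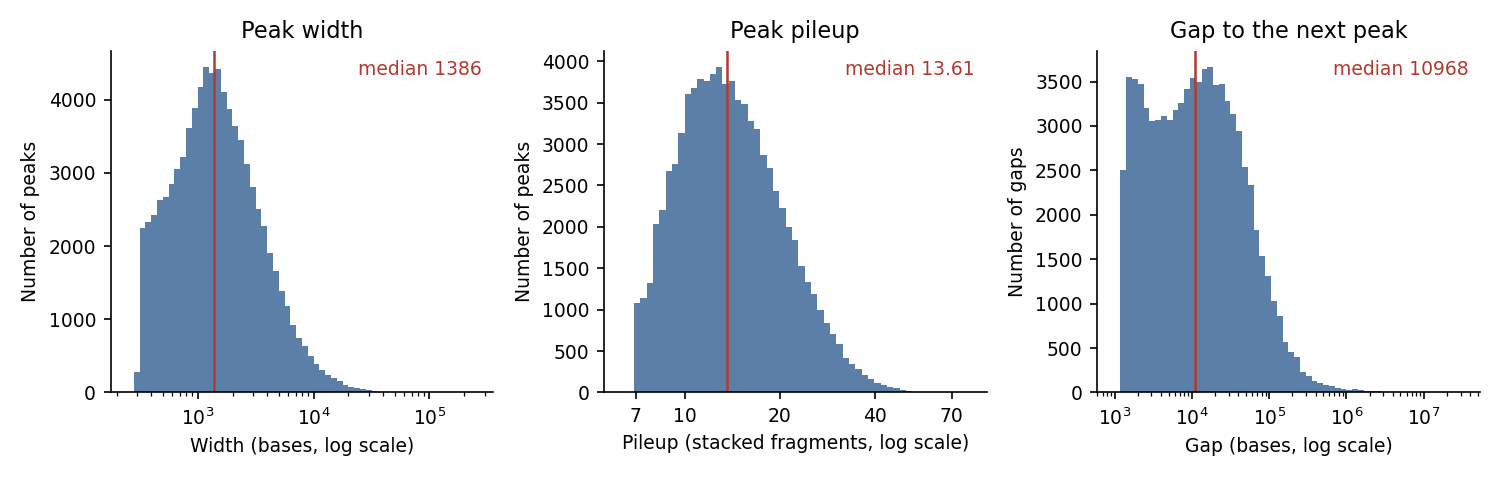
Numbers of control peaks by width and by pileup, and numbers of gaps by length, each on a log axis with the median as a red line. Medians are 1386 bases, 13.61 fragments and 10968 bases. The gap panel has a second mode of short gaps near its lower end, where the caller's joining sets the smallest gap.

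Genes were ranked by the bases covered in the RefSeq record plus 5 kb on either side, here called the window. Of 19974 coding genes, 16363 had at least 1 peak in the window (81.9%) and 3654 had at least 25% of it covered (18.3%). The median gene had 2 peaks, 3955 covered bases and 9.39% of its window covered. EXT1, which encodes a glycosyltransferase that builds heparan sulfate chains, ranked first by a wide margin. Its window (record at chromosome 8, 117794490 to 118111826) held 7 peaks covering 282908 bases, or 86.4%. LPP came second in bases with 54 peaks, but they covered 25.01% of its long window, so the 2 genes reached the top in different ways.

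DST, which encodes the cytoskeletal linker dystonin (chromosome 6, 56457996 to 56954830), had 186728 covered bases in 33 peaks, or 36.8% of its window. ASAP1, an Arf GTPase-activating protein gene (chromosome 8, 130052104 to 130443674), had 176395 bases or 43.9%, and FRMD6, which encodes a FERM-domain protein of the Hippo pathway (chromosome 14, 51396431 to 51730727), had 175197 or 50.9%. The DST and ASAP1 windows were covered by chains of many peaks, the widest of 33745 and 33907 bases. FRMD6 had 19 peaks, 1 of them 62020 bases wide. TRIO, a guanine nucleotide exchange factor gene (chromosome 5, 14143342 to 14510204), had 174788 bases (46.4%) in 16 peaks, 1 of them 87840 bases wide. FNDC3B, which encodes a fibronectin-domain protein of the endoplasmic reticulum membrane (chromosome 3, 172039578 to 172401669), had 165254 bases (44.4%) in 17 peaks. RANBP2, a nucleoporin gene whose RefSeq record is over 1 Mb long (chromosome 2, 108719482 to 109842301), had 172417 bases but only 15.2% of its window, and the teneurin gene TENM2 had 149499 bases and 11.5%. RANBP2 and TENM2 were the only 2 of the 20 first genes below 25%. PALLD, the actin-binding palladin gene, had 137520 bases (31.2%). PHLDB2, which encodes a cell-cortex protein, had 134953 bases (53.1%), and the arginine metabolism gene DDAH1 had 134555 (49.9%). The ubiquitin ligase gene NEDD4L had 133954 bases (36.5%). BCAR3, CRIM1, ANKRD11, LIMCH1, MACF1, DLC1 and PALM2AKAP2 were the other 7, at 57.1%, 73.0%, 60.3%, 42.0%, 36.1%, 30.0% and 28.7% of their windows.

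The rank by bases favours long genes. Spearman's rho over the 19974 genes was 0.52 between window length and covered bases and -0.046 between window length and percent covered, and each of the first 100 genes had a window of at least 100 kb. By percent among the 3704 windows of at least 100 kb, EXT1 was again first, followed by SHB, a signalling adaptor gene (80.5%), SMAD3, a transducer of TGF-beta signals (77.9%), and CRIM1, which encodes a membrane protein that binds BMPs (73.0%). LOC128462377 (68.4%, within ANKRD11), RTN4 (Nogo, an endoplasmic reticulum shaping protein, 65.7%), CLIC4 (an intracellular chloride channel protein, 64.2%), HPCAL1 (a calcium sensor, 63.9%), WAC (62.98%) and DNMBP (an exchange factor for Cdc42, 62.6%) completed the 10. The local input background implied by a peak is (pileup + 1) / fold − 1, with the authors' fold. Its median over a window ranged from 2.44 (NEDD4L) to 6.82 (ASAP1) among the 20 genes with most bases, and was above the median of all genes (3.78) at 12 of 20. Its part in the rank was not tested.

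**Figure D3:**
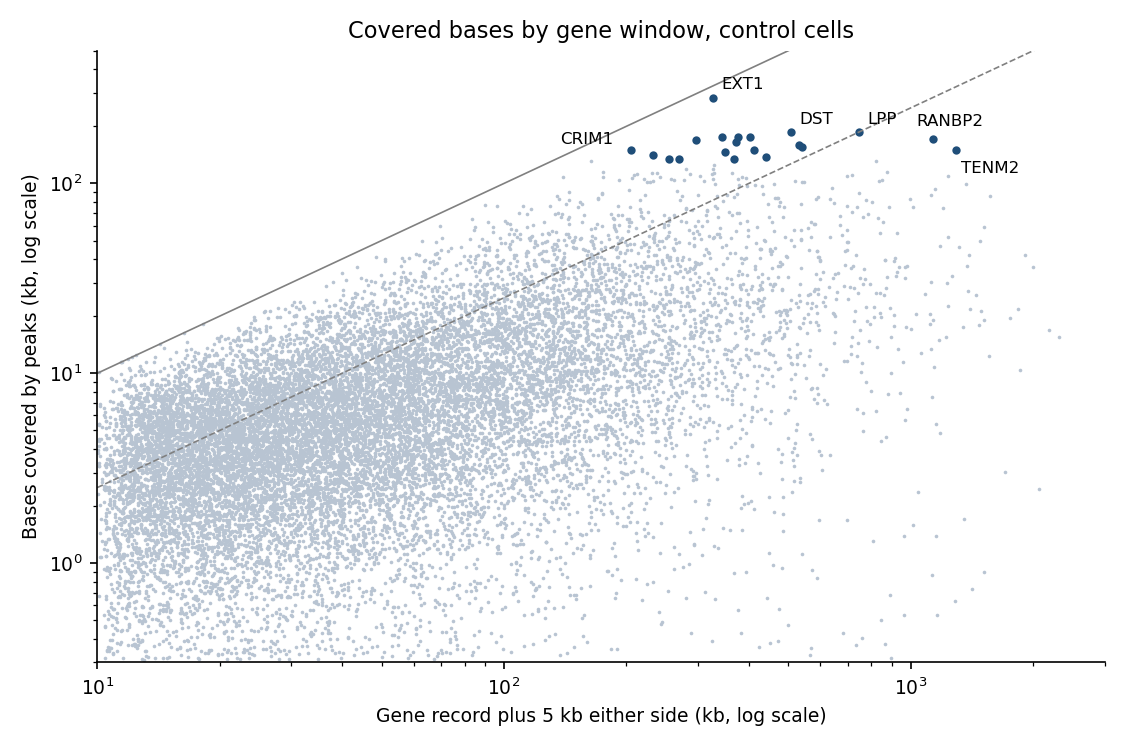
Covered bases against window length for coding genes with at least 1 control peak, both axes on a log scale, with the 20 top genes in dark blue. The solid line is full coverage and the dashed line 25% coverage. EXT1 stands highest at 282908 bases, and TENM2 and RANBP2 lie below the dashed line.

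The widest peak, of 185349 bases (chromosome 8, 127796953 to 127982301, pileup 37.9), lay in the record of the non-coding RNA gene PVT1, 54002 bases from MYC, the nearest coding gene and a growth regulator. The MYC window itself had 2 peaks covering 6335 bases, or 36.2%. The second, of 125481 bases, lay at EXT1 (chromosome 8, 117892810 to 118018290), the third, of 105826 bases, at CRIM1 (chromosome 2, 36359443 to 36465268), and the fourth, of 87840 bases, at TRIO. The fifth, of 86995 bases (chromosome 8, 118020147 to 118107141), was the neighbour of the second, also at EXT1. TRAM2, whose product acts with collagen synthesis at the endoplasmic reticulum, held one of 76661 bases (chromosome 6, 52497841 to 52574501) in a window covered to 86.1%. RTN4, SHB and FNDC3B held peaks of 72397, 71053 and 64473 bases. The implied background at the 10 widest peaks ranged from 3.801 to 7.24, above the list's median of 3.70 at each.

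The 10 peaks of highest pileup were wide, from 4508 to 26115 bases against the list's median of 1386. The first (chromosome 22, 37747704 to 37754680, pileup 73.4, fold 9.60) overlapped TRIOBP, an actin-bundling protein gene. The second (chromosome 20, 45777429 to 45784670, pileup 68.4) overlapped WFDC3, and the third (chromosome 3, 10182599 to 10207893, 67.9) overlapped IRAK2, a kinase gene of interleukin-1 receptor signalling. A peak of pileup 61.5 lay 1302 bases from ITGA3, the integrin alpha-3 gene (chromosome 17, 50041434 to 50054808), over the RNA gene PICART1. PLA2G6, UQCC1 and DLGAP4 overlapped peaks of 61.6, 61.3 and 59.3. The other 3 lay outside coding genes, nearest to FER1L6 (75350 bases), FBLN2 (8685 bases) and MYC (423555 bases). All 10 lay where the implied background was high, between 6.22 and 8.28 against a 95th percentile of 5.996, and pileup itself enters that estimate. By the authors' −log10 q the first peak was instead one in PEMT, an enzyme gene of phosphatidylcholine synthesis (chromosome 17, 17509801 to 17513521). It had a −log10 q of 50.7, the highest fold of the list (11.7), a pileup of 59.2 and an implied background of 4.14. Of the 10 peaks of highest −log10 q, 8 were also among the 10 of highest pileup, and CBX7 (17635 bases away) was nearest to the remaining one.

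Gene lists were then set beside all coding genes, for which 81.9% had a peak, 18.3% had at least 25% of the window covered and the median was 9.39%. These figures describe the lists and are not tests, and short windows reach 25% more often (26.7% of windows under 20 kb against 8.44% of those of 100 to 500 kb). Genes of a mesenchymal-like breast line were well covered, with a peak at 20 of 20, at least 25% at 15 and a median of 45.2% at a median window of 43921 bases. CD59, a complement inhibitor gene, had 60.1% and CAV2 (caveolin-2) 59.4%. VIM (vimentin) had 36.2%, CD44, the hyaluronan receptor gene, 43.5%, and FN1 (fibronectin), PLAUR (urokinase receptor) and AXL (a receptor kinase) had the lowest values, 10.9%, 16.98% and 21.04%. All 20 lay above the median of coding genes, as did all 28 ribosomal protein genes and 27 of 28 housekeeping genes. The lists were chosen with earlier results of these data known, so this is no check of the label of the line.

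Luminal and epithelial genes were mixed. Of 20 luminal genes, 17 had a peak and 9 reached 25%, with a median of 16.2%. The keratin genes KRT18 and KRT19 and the stress factor gene XBP1 had 61.4%, 59.4% and 59.97%, and GATA3 and FOXA1, luminal transcription factor genes, had 35.7% and 29.3%. The estrogen and progesterone receptor genes were sparsely covered, with ESR1 at 5.67% and PGR at 0.981%, and TFF3, AGR2 and TFAP2B had no peak. Of 20 epithelial junction genes all had a peak, 6 reached 25% and the median was 13.0%. The claudin genes CLDN7 and CLDN4 had 62.3% and 46.6%, whereas RAB25, CDS1 and ESRP1 had 2.12%, 3.56% and 4.69%, and the E-cadherin gene CDH1 had 15.7%. A peak is no measure of transcription, and poised enhancers carry the mark too.

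Factors of epithelial-to-mesenchymal transition had a median of 7.10%, below the 9.39% of all coding genes. A peak was present at 11 of 12 (91.7% against 81.9% of all coding genes), and 2 reached 25% (16.7% against 18.3%). With −log10 q limited to 5 or more the median was 1.83%, above the 0.762% of all coding genes. KLF4, which is known to favour the epithelial state, had 65.5% and SNAI1, a repressor of E-cadherin, 59.3%. ZEB1 had 21.4% over 16 peaks, FOXC2 had 3.07%, TCF4 0.0852%, and TWIST1 no peak. Of the 12, 5 lay above the median of coding genes.

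Signalling genes upstream and downstream of the EGF receptor had a median of 46.9%, the highest of the 23 lists with this window, with a peak at 20 of 20 and at least 25% at 14. The order depended on the window. With the record alone the list had 37.5%, below NF-kB and cytokine genes (59.8%), ribosomal protein genes (56.04%), mesenchymal-like genes (46.6%) and YAP-TEAD genes (39.7%). With 10000 and 50000 bases added it had 32.4% and 21.7%, and mesenchymal-like genes were highest (40.04% and 28.1%). The ligand gene HBEGF had 73.8%, the receptor gene EGFR 45.5% over 12 peaks, and the feedback and early response genes IER3, PHLDA1 and DUSP5 had 73.1%, 68.8% and 63.2%. The kinase genes BRAF and MAPK3 were among the 3 lowest, at 3.88% and 12.9%. NF-kB and cytokine genes had a median of 44.5%, with a peak at 21 of 22 and at least 25% at 18. LIF, a cytokine gene of the interleukin-6 family, was covered over 100% of its window by 1 peak of 21287 bases. TNF and IL1B had 85.5% and 78.5%, REL and CXCL1 6.02% and 11.2%, and CCL2 had no peak. The NF-kB list thus ran from a full window to a bare one. Its median was 22.96% with −log10 q limited to 5 or more, and 0 with fold limited to 4 or more.

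YAP-TEAD targets and Hippo genes had a median of 39.7%, with a peak at 22 of 22 and at least 25% at 17. The targets AMOTL2, CRIM1, F3 and CCN2 had 76.0%, 73.0%, 62.7% and 56.9%. The coactivator genes YAP1 and WWTR1 had 31.9% and 30.9%, the factor gene TEAD1 had 42.8%, and TEAD2, WTIP and TEAD4 had 1.74%, 5.13% and 10.02%. Focal adhesion and actomyosin genes had a median of 31.4% at a median window of 97394 bases, with a peak at 24 of 24 and at least 25% at 17. BCAR1 had 66.2%, MYH9 (non-muscle myosin) 62.5% and ACTN4 (an actinin) 59.3%, and ITGAV, TNS3 and TLN1 had 5.65%, 10.6% and 14.1%. Windows of 50 to 100 kb reached 25% in 12.5% of all coding genes.

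Among transcription factor families, 8 of 12 AP-1 genes reached 25%, with a median of 27.5%. MAFF, FOSL1 and FOSL2 had 68.9%, 55.98% and 48.9%, whereas BATF, FOS and JUN had 7.55%, 10.04% and 18.4%. RUNX and ETS genes had a median of 23.1% with 8 of 18 at 25%, led by ELF3 (75.05%), ETS1 (49.8%) and ETS2 (48.3%), with ELF5, SPI1 and ERG at 3.14%, 3.89% and 4.40%. ELF5 and SPI1 are factors of luminal progenitors and of blood cells. TGF-beta pathway genes had a median of 25.3%, with 9 of 18 at 25%. SMAD3, SMURF2 and TGFBR2 had 77.9%, 58.3% and 52.5%, and LTBP1, TGFB3 and TGFBR1 had 6.35%, 6.48% and 8.28%. Of 12 glucocorticoid receptor genes and targets, 11 had a peak and 5 reached 25% (median 17.9%), with the receptor gene NR3C1 at 34.7%, MT2A, DUSP1 and ERRFI1 at 73.6%, 54.6% and 54.5%, ZBTB16 and TFCP2L1 at 2.96% and 6.99%, and CEBPD with no peak.

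Chromatin regulators and cell cycle genes came next. SWI/SNF subunit genes had a peak at 21 of 21, at least 25% at 3 and a median of 14.8%, led by ARID1A (46.5%), PHF10 (33.0%) and SMARCD2 (25.9%), with ARID2, SMARCA2 and BRD7 at 3.68%, 4.09% and 5.67%. Genes of the H3K4 methyltransferases and demethylases had a median of 12.9% with 3 of 18 at 25%, namely PAGR1 (51.2%), SETD1B (31.3%) and DPY30 (25.5%), and KDM1B, RBBP5 and KDM5A were lowest at 3.99%, 4.15% and 4.38%. Cell cycle genes had a median of 23.6%, with 10 of 20 at 25%. CCNA2, CDK2 and CDK6 had 59.0%, 55.6% and 44.8%, CCNE1 had 3.45%, and CDKN2A and CDKN2B had no peak.

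Constitutive genes showed the paired shoulders most regularly. All 28 ribosomal protein genes had a peak, 24 reached 25%, and the values ran from 18.8% to 76.5% around a median of 32.2%. RPS16, RPL3 and RPL27 had 76.5%, 64.6% and 63.9%, and RPS2 and RPL13A had 18.8% and 21.2%. Housekeeping genes had a peak at 28 of 28, at least 25% at 16 and a median of 30.2%, from LDHA (54.4%), GAPDH (50.6%) and EEF1A1 (50.4%) down to VCP (12.2%), GUSB (10.1%) and PSMB2 (7.66%). The housekeeping median was 18.9% with −log10 q limited to 5 or more, and 0 with fold limited to 4 or more. The start lay in a gap between peaks within 3 kb at 21 of 22 ribosomal protein genes and 21 of 24 housekeeping genes with a listed start, against 37.6% of all starts and 52.6% of CpG-rich ones. At GAPDH the gap was 3051 bases, between peaks of pileup 20.8 and 19.5. Of these starts, 18 of 22 and 22 of 24 were CpG-rich.

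Genes of other tissues had medians below the 9.39% of all coding genes. Only 2 of 22 olfactory receptor genes had a peak, OR2T8 (11.5%) and OR14I1 (2.27%), and 19 of 20 listed starts had no peak within 3 kb against 30.2% of all starts. Neuronal genes had a peak at 14 of 22, at least 25% at none and a median of 0.981%, at a long median window of 339858 bases. GRIN1, SYN1 and SNAP25 led with 15.7%, 15.3% and 13.9%. GRIN2A, GRIN2B, NEUROD1 and 5 others had no peak. Liver genes had a peak at 13 of 20 and a median of 2.00%. SERPINA1, the alpha-1-antitrypsin gene, stood apart at 77.2%, with its start inside a peak of 15417 bases, and APOA2 had 28.8%, while ALB, APOB, TTR and 4 others had no peak. Muscle and heart genes had a peak at 10 of 18 and a median of 0.634%, with TNNI3 at 47.4% and RYR2 carrying 61 peaks over 9.93% of its very long window. MYOD1, MYF5 and NKX2-5 were among the 8 with none. Blood cell genes had a peak at 16 of 20 (80%), close to the 81.9% of all coding genes, but a median of 5.48%. They ran from HBA1 (29.4%) and CD34 (17.1%) to MS4A1, HBB and MPO, which were among the 4 with none. HOX genes had a peak at 21 of 39 and a median of 2.61%. HOXC10 (25.02%) was the only member to reach 25%, followed by HOXB5 (22.9%) and HOXD1 (20.8%).

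**Figure D4:**
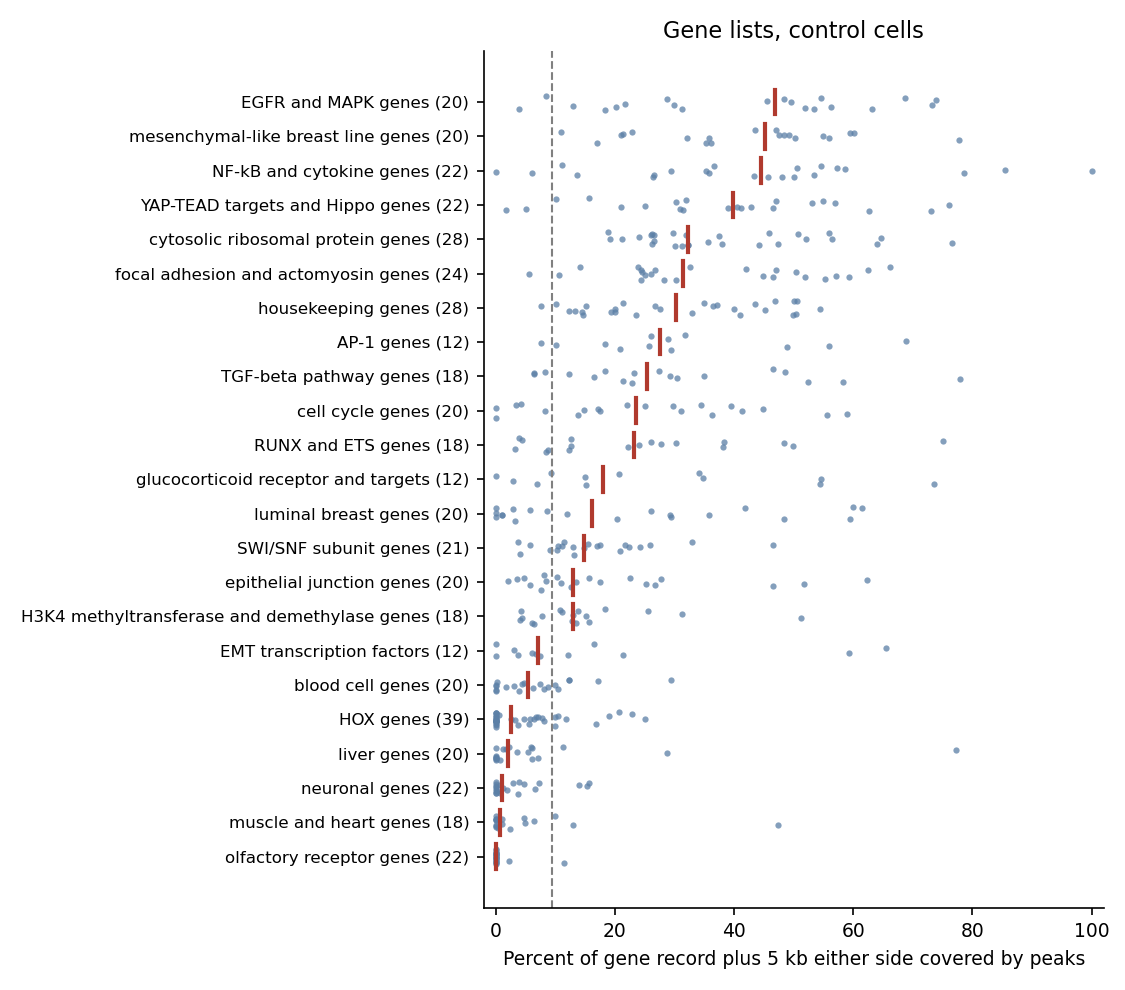
Percent of the window covered by control peaks for each member of the 23 lists (blue points), with the list's median as a red bar, the number of genes in parentheses and the median of all coding genes (9.39%) as a dashed line. EGF receptor, mesenchymal-like and NF-kB lists lie highest, and olfactory receptor, muscle and neuronal lists lie at or near 0.

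Long genes without a single peak were the counterpart of EXT1. Among the 19974 coding genes, 3611 had no covered base (18.1%), and among the 327 windows of at least 500 kb there were 23. The longest were RBFOX1, a neuronal splicing regulator gene with a window of 2483620 bases, PTPRD, a receptor phosphatase gene (2308757), DMD, the dystrophin gene (2230167), and CSMD1 (2069554). IL1RAPL2, the netrin receptor gene DCC, AUTS2, PTPRT, the neuregulin gene NRG3 and the sarcoglycan gene SGCD followed, with windows from 1211631 down to 1049957 bases. Several are known for expression in nerve or muscle.

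The longest stretches without a peak were 22.9 Mb on chromosome 1 (121588017 to 144516613), 18.0 Mb on chromosome 9 (43270471 to 61225256) and 14.7 Mb on chromosome 16 (31881498 to 46572864), which span centromeric sequence. Next came 8.43 Mb on chromosome 7 (56107230 to 64542112), between CHCHD2 and ZNF107 with 24 coding genes inside, and 7.86 Mb on chromosome 11 (49208673 to 57072176), between FOLH1 and LRRC55 with 52 coding genes inside, mostly olfactory receptors. The stretches on chromosomes 1, 9 and 16 held 5, 3 and 10 coding genes. On chromosome 9, a stretch of 4.16 Mb (20756295 to 24912024) with 24 coding genes had no peak, and it holds the interferon-alpha cluster, MTAP, CDKN2A and CDKN2B. It was chosen after its values were seen. A peak list does not show whether input DNA was present there, and this was not tested.

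Peaks followed coding genes along the chromosomes. Chromosome 17 had the most peaks per Mb (43.2, with 10.5% of its span covered), then chromosome 19 (42.5 and 9.12%) and 22 (36.7 and 8.90%), and chromosome X had the fewest (12.7 and 2.396%). Median width differed little, from 1268 bases on chromosome X to 1554.5 on chromosome 22. Of coding genes, 57.2% on chromosome X and 59.0% on chromosome 21 had a peak, and at least 73.9% did on each of the other 21 chromosomes. Over 594 regions of 5 Mb, the median coverage was 5.90% (5th to 95th percentile 0.819% to 12.9%). The best covered regions were 35 to 40 Mb of chromosome 22 (19.9%, 361 peaks), 65 to 70 Mb of chromosome 11 (18.2%) and 40 to 45 Mb of chromosome 17 (17.6%). Among the 544 regions with at least 40 peaks, 65 to 70 Mb of chromosome 18 was lowest (1.08%).

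Coverage also moved with the implied input background, an estimate made from pileup and fold. Across regions, coverage had a Spearman rho of 0.70 with the number of coding genes and 0.50 with the implied background. The background values gathered at separate levels, with 52 regions under 2.6 (near the lowest value of the list), 300 from 2.6 to 3.8 (median 3.15), 218 from 3.8 to 5.2 (median 4.52) and 24 above. Median coverage at these levels was 1.36%, 5.89%, 6.51% and 7.68%, and median pileup was 9.06, 11.9, 15.6 and 20.2. The relation with coding genes was present within each level, with a rho of 0.50, 0.67, 0.71 and 0.53. Chromosome X had the lowest median background (2.47) and chromosome 20 the highest (5.58). Over all peaks the lowest implied background was 2.404 and the 5th percentile 2.421. The lowest level and the value of chromosome X thus lie close to the lowest value that the estimate took, and lower input may not show in it. The bounds of the levels were set after the values were seen, and the part of background in coverage was not tested.

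**Figure D5:**
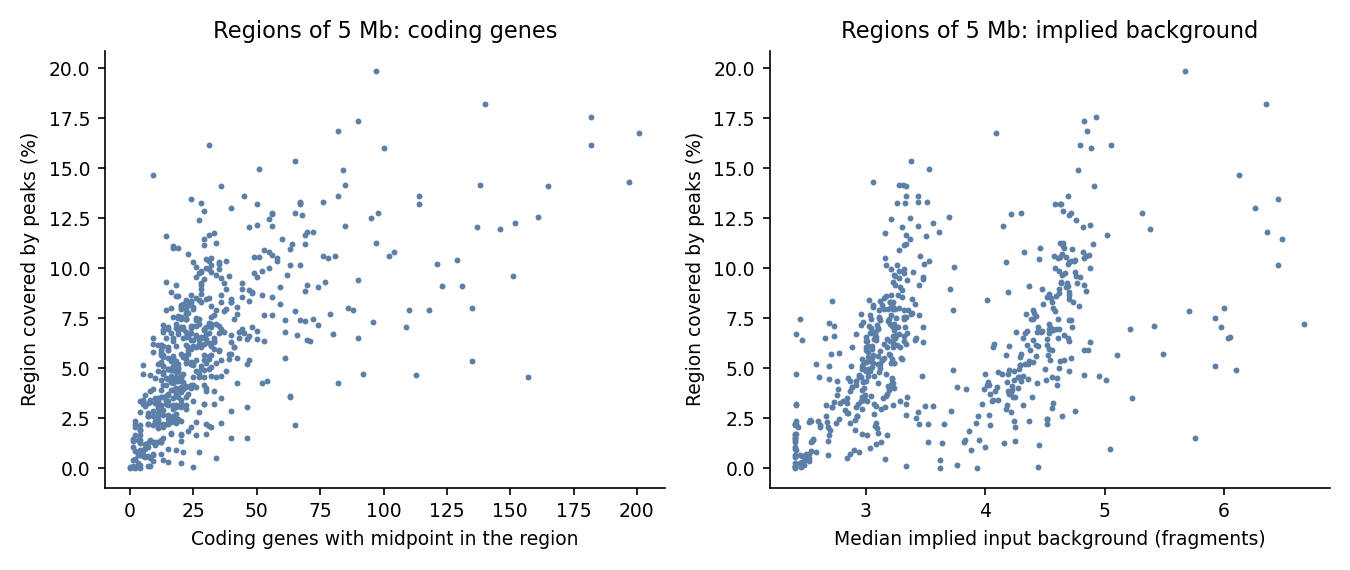
Percent of each region of 5 Mb covered by control peaks, against its number of coding genes (left) and against the median implied input background of its peaks (right). Each point is 1 of 594 regions. Coverage rises with coding genes, and background values gather near 3.15 and 4.52.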

How the data were processed

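Per the labels' protocols, the chromatin had been cut with MNase. Bowtie2 2.3.5.1 and MACS2 2.2.6 with hg38 are named per the submitters' processing notes. No source used here gives the settings, the peak threshold, duplicate handling or how the 2 replicates were combined. The −log10 q of the peaks used ran from 1.009 upward, with a 25th percentile of 1.93 and a median of 3.18. The list thus includes weakly supported peaks. Each peak has a width in bases, a pileup signal, a fold ratio over input, and −log10 p and q values, all computed by the authors, per the file headers. The lowest gap between peaks, 1249 bases, is 4 times the shortest peak plus 1, so the caller's joining sets the smallest trough that can appear.

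The control list alone was analysed with Python 3.11.15, numpy 2.4.6, pandas 2.3.3, scipy 1.17.1 and matplotlib 3.10.9. Covered bases were counted over RefSeq records (GRCh38.p14, the same chromosome coordinates as hg38) plus 5000 bases, and the code was tested on simulated peaks. All 476 entries of the 23 gene lists matched, 1 through an older symbol. Of 19974 coding genes, 4162 had no start in the promoter table, and chromosome 8 starts were not used here. The members and lists were chosen with earlier results of these data known. Named genes were the 20 with most covered bases, the 10 with the highest percent among windows of at least 100000 bases (skipping overlapping windows), those nearest the 10 widest, 10 highest and 10 most significant peaks, the 10 longest bare genes, those beside the 5 longest stretches without a peak, and up to 3 members at either end of each list. Members with roles named in the text, such as receptors, were added after their values were seen, and some genes that the rule names are not reported here. Motifs were chosen after the data were seen. Alternatives were thresholds of −log10 q of 5 and fold of 4, joined peaks, other windows and other promoter rules.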

Additional observations from a re-analysis of the deposited data

Results flagged for a closer look

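Outside chromosomes 1 to 22 and X, 6 peaks of the control list lay on unplaced or unlocalised sequences, which no comparison above used. They were picked out because they are called above input in data that were set aside. Of these, 3 lay on GL000219.1 with pileups of 7.28 to 7.41, near the lowest of the list. The strongest lay on KI270713.1, with a width of 1629 bases, a pileup of 20.5 and a fold of 5.09, and another, on GL000195.1, had a pileup of 16.7.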

How the results depend on the processing

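Values that count or size peaks moved with the threshold. With −log10 q limited to 5 or more, the list held 23884 peaks covering 93.8 Mb, with a median width of 2714.5 bases, a median pileup of 21.2 and a median gap of 28276 bases. With fold limited to 4 or more, it held 14589 peaks covering 62.7 Mb, with medians of 2966 bases, 22.6 and 49120 bases. Coding genes with a peak fell to 51.3% and 36.2%, promoters covered from 16.6% to 6.53% and 3.64%, and the median percent covered of coding genes to 0.762% and 0. Requiring 150 covered bases gave 14.2% of promoters, and taking every listed start, an alternative added after seeing the data, gave 17.5%. Joining peaks over gaps up to 3000 bases gave a median width of 1682 and a median gap of 16675 bases, and over 12.5 kb 38822 regions with medians of 3144 and 32718 bases. The record alone gave a median of 7.60% covered, and 50000 bases on either side gave 9.08%.

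The trough at CpG-rich starts was recomputed under 3 settings, added after seeing the data, at the offsets of the reported maxima. It was 14.7%, 5.28% and 25.2% (1250 bases upstream, start, 1750 bases downstream) at a −log10 q of 5, 7.65%, 2.49% and 11.9% at a fold of 4, and 37.9%, 12.8% and 53.8% over all starts. It was not recomputed with joined peaks, where gaps shorter than the joining distance close. EXT1 was first by bases in each of the 5 alternatives. Of the 20 genes with most bases, 14 remained at a −log10 q of 5, 10 at a fold of 4, 20 with the record alone and 19 with each wider window. All 23 lists stayed on their side of the coding median under the 3 other windows, and 22 did at a −log10 q of 5, where EMT factors turned above it (1.83%). At a fold of 4 that median was 0, and 14 of the 23 lists kept their side. The NF-kB and cytokine, housekeeping and EMT factor lists also had medians of 0. So did the neuronal, liver, blood cell, muscle and heart, olfactory receptor and HOX lists, and sides at this setting say little. No paired analysis was possible because the list holds no values per replicate, and leaving out a replicate was not possible for the same reason. Read depth is unknown, so a weak or missing peak may be a limit of depth.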

Other observations

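Long non-coding RNA genes were also covered by broad H3K4me1 domains, although 57.1% of the 18177 records had a peak in the window against 81.9% of coding genes. PVT1, next to MYC on chromosome 8, led with 15 peaks covering 271397 bases, or 85.7% of its window, close to the coverage of EXT1. With peaks joined over gaps up to 12.5 kb, the region around PVT1 (chromosome 8, 127792646 to 128202633) was the largest of the list, with 23 peaks covering 323377 of 409988 bases and no coding gene in it. LINC-PINT had 117077 bases (48.3%), SLC44A3-AS1 110440 (51.6%) and MIR100HG, a host gene of microRNAs, 105191 (26.0%). SCIRT had 62057 bases (69.8%), ERRFI1-DT 58409 (52.8%) and EPCAM-DT 51239 (31.5%). These genes were chosen after their values were seen, records with no assigned name were left out, and windows of neighbouring genes can share peaks.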
